A study of Arabidopsis thaliana with 9 samples.

Results

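WRKY transcription factors are a family of plant DNA-binding proteins named after a conserved WRKY peptide motif that sits beside a zinc finger. The family members were taken as a list of 57 WRKY genes named by locus, out of 32548 genes in the expression table. Membership thus follows the gene name and not the measured values. The list may not hold every WRKY gene of the species, so statements on the family and its groups cover these 57 genes only. All 57 were found in the table and all 57 passed the filter on low values, so every member was tested. RNA-seq was done on whole seedlings of Arabidopsis thaliana, 11 days old and grown on MS plates, in 3 genotypes with 3 libraries each. All libraries are listed with the same temperature and the same daily cycle, in which the light period was longer than the dark period. The al24567 line carries loss-of-function labels for AL2, AL4, AL5, AL6 and AL7, and the ring1a1b line for RING1A and RING1B. Both were set against Col-0, the wild type. The labels name no alleles or lines, and they do not say whether the 3 libraries of a genotype came from separate cultures, so p-values measure the spread between these libraries.

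WRKY proteins bind the W box, a short DNA element built on a TTGAC core, and many WRKY promoters carry W boxes themselves. The family is divided by the number and type of its WRKY domains into groups I, IIa to IIe and III. In leaves it is known for the control of immunity against pathogens, of salicylic acid and jasmonate outputs, and of leaf senescence, with some members acting as activators and others as repressors of the same responses. ALFIN-like proteins, mutated in al24567, carry a PHD finger that reads trimethylation of histone H3 lysine 4. RING1A and RING1B are the RING-finger core of a Polycomb complex that adds ubiquitin to histone H2A.

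The libraries held 18258434 to 22435659 recovered reads. Levels are given as the adjusted read counts of the deposited table, except where another unit is named. Library profiles of the same genotype correlated at 0.98 to 0.985 and those of different genotypes at 0.941 to 0.967. AL2, AL4, AL6 and AL7 were lower in al24567, where they lay between 119.2 and 308.5, against 428.5 to 954.9 in Col-0. AL5 lay between 87.2 and 89.1 in al24567 and between 84.4 and 96.0 in Col-0, and was not called. RING1A lay between 0 and 3.04 in ring1a1b, against 134.0 to 164.9 in Col-0, and RING1B between 53.0 and 70.7 in ring1a1b, against 81.3 to 126.1 in Col-0. RING1B was also higher in al24567, at 153.7 to 201.4. CPM here are adjusted counts scaled to a common library total. Summed CPM of 8 photosynthesis genes lay between 47130 and 53950 in al24567 and between 52430 and 56370 in ring1a1b. In Col-0 these sums lay between 55260 and 59950. Those of 10 root genes lay between 182.1 and 203.9 CPM in al24567, between 150.6 and 186.2 CPM in ring1a1b and between 135.1 and 150.8 CPM in Col-0. Those of 7 seed storage and embryo genes lay between 0.349 and 3.0 CPM in al24567, between 64.1 and 196.1 CPM in ring1a1b and between 0.159 and 0.502 CPM in Col-0, where 5 of the 7 had no reads. In whole seedlings fewer cells of a type and less RNA per cell cannot be told apart.

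In al24567 against Col-0, WRKY genes were called higher more often than lower. Of the 57 members, 22 rose and 4 fell at an adjusted p below 0.05, so 45.6% were called, against 36.3% of the 23207 genes tested. By direction, 38.6% of the members were higher, against 17.9% of all genes tested, and 7.02% were lower, against 18.4% of all genes. The median log2 fold change was 0.43 over the members and -0.02 over all genes tested. Among all 23207 genes tested, 1060 were called and rose at least 2-fold. Of the 22 members that rose, 12 rose at least 2-fold. They included WRKY38 and WRKY62, which dampen basal defence, WRKY51, which takes part in the repression of jasmonate signalling by salicylic acid, and WRKY45, which acts in the response to phosphate starvation. The 4 members that fell were WRKY40, WRKY33, WRKY61 and WRKY11, of which only WRKY40 fell at least 2-fold. Falls of at least 2-fold were called for 853 of all genes tested. All 3 al24567 libraries lay above all 3 Col-0 libraries for 31 of the 57 members, against 23.2% of all genes tested. They lay below them for 7 members, against 24.5%. In all, 47.7% of all genes tested did not overlap. Of the 10 root genes, 6 were higher and 1 was lower in al24567, and their part in the WRKY values was not tested.

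In ring1a1b against Col-0, fewer WRKY genes moved and most of those that did were lower. Of the 57 members, 2 rose and 10 fell, so 21.1% were called, against 17.7% of all genes tested. By direction, 3.51% were higher, against 10% of all genes tested, and 17.5% were lower, against 7.67% of all genes. The median log2 fold change was -0.20 over the members and -0.02 over all genes tested. WRKY54 and WRKY70, related regulators of salicylic acid outputs and leaf senescence, showed the largest falls and were the 2 members that fell at least 2-fold. WRKY45 and WRKY23 were the 2 that rose, WRKY45 at least 2-fold. Among all 23207 genes tested, 264 were called and fell at least 2-fold, and 1002 were called and rose at least 2-fold. The ring1a1b libraries lay clear above those of Col-0 for 6 members, against 17.4% of all genes tested, and clear below for 12, against 18.3%. In all, 35.7% of genes did not overlap. The count of lower members rested in part on single libraries, since it was 5 without Col-0 replicate 1 and 6 without Col-0 replicate 2. The count of all genes called lower, 1780, was unsteady too, with 1103 without Col-0 replicate 1, 1183 without Col-0 replicate 3, 1166 without ring1a1b replicate 3 and 1156 with equal column totals. With columns rescaled to equal totals, 4 members were higher and 7 lower, so that 36.4% of the called members were higher, against 16.7% with the values as deposited. The count of higher members was 4 without ring1a1b replicate 1 and 5 with edgeR on the recovered reads. All 6 tested seed genes were higher in ring1a1b, and their part in the WRKY values was not tested.

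Set against each other directly, ring1a1b seedlings had lower levels of most called WRKY genes than al24567 seedlings. Of the 57 members, 4 were higher and 30 lower in ring1a1b than in al24567, so 59.6% were called, against 39% of all genes tested. By direction, 7.02% were higher, against 20% of all genes tested, and 52.6% were lower, against 18.9% of all genes. The median log2 difference was -0.47 over the members and 0.02 over all genes tested. WRKY40, WRKY23, WRKY9 and WRKY11 were the 4 higher ones. Of the 30 lower ones, 18 were lower by at least 2-fold, as were 1032 of all 23207 genes tested. The ring1a1b libraries lay clear above those of al24567 for 5 members, against 24.2% of all genes tested, and clear below for 32, against 23%. In all, 47.2% of genes did not overlap. The comparisons with Col-0 share its 3 libraries, so their values are given side by side and no overlap between them is drawn as a result.

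**Figure D1:**
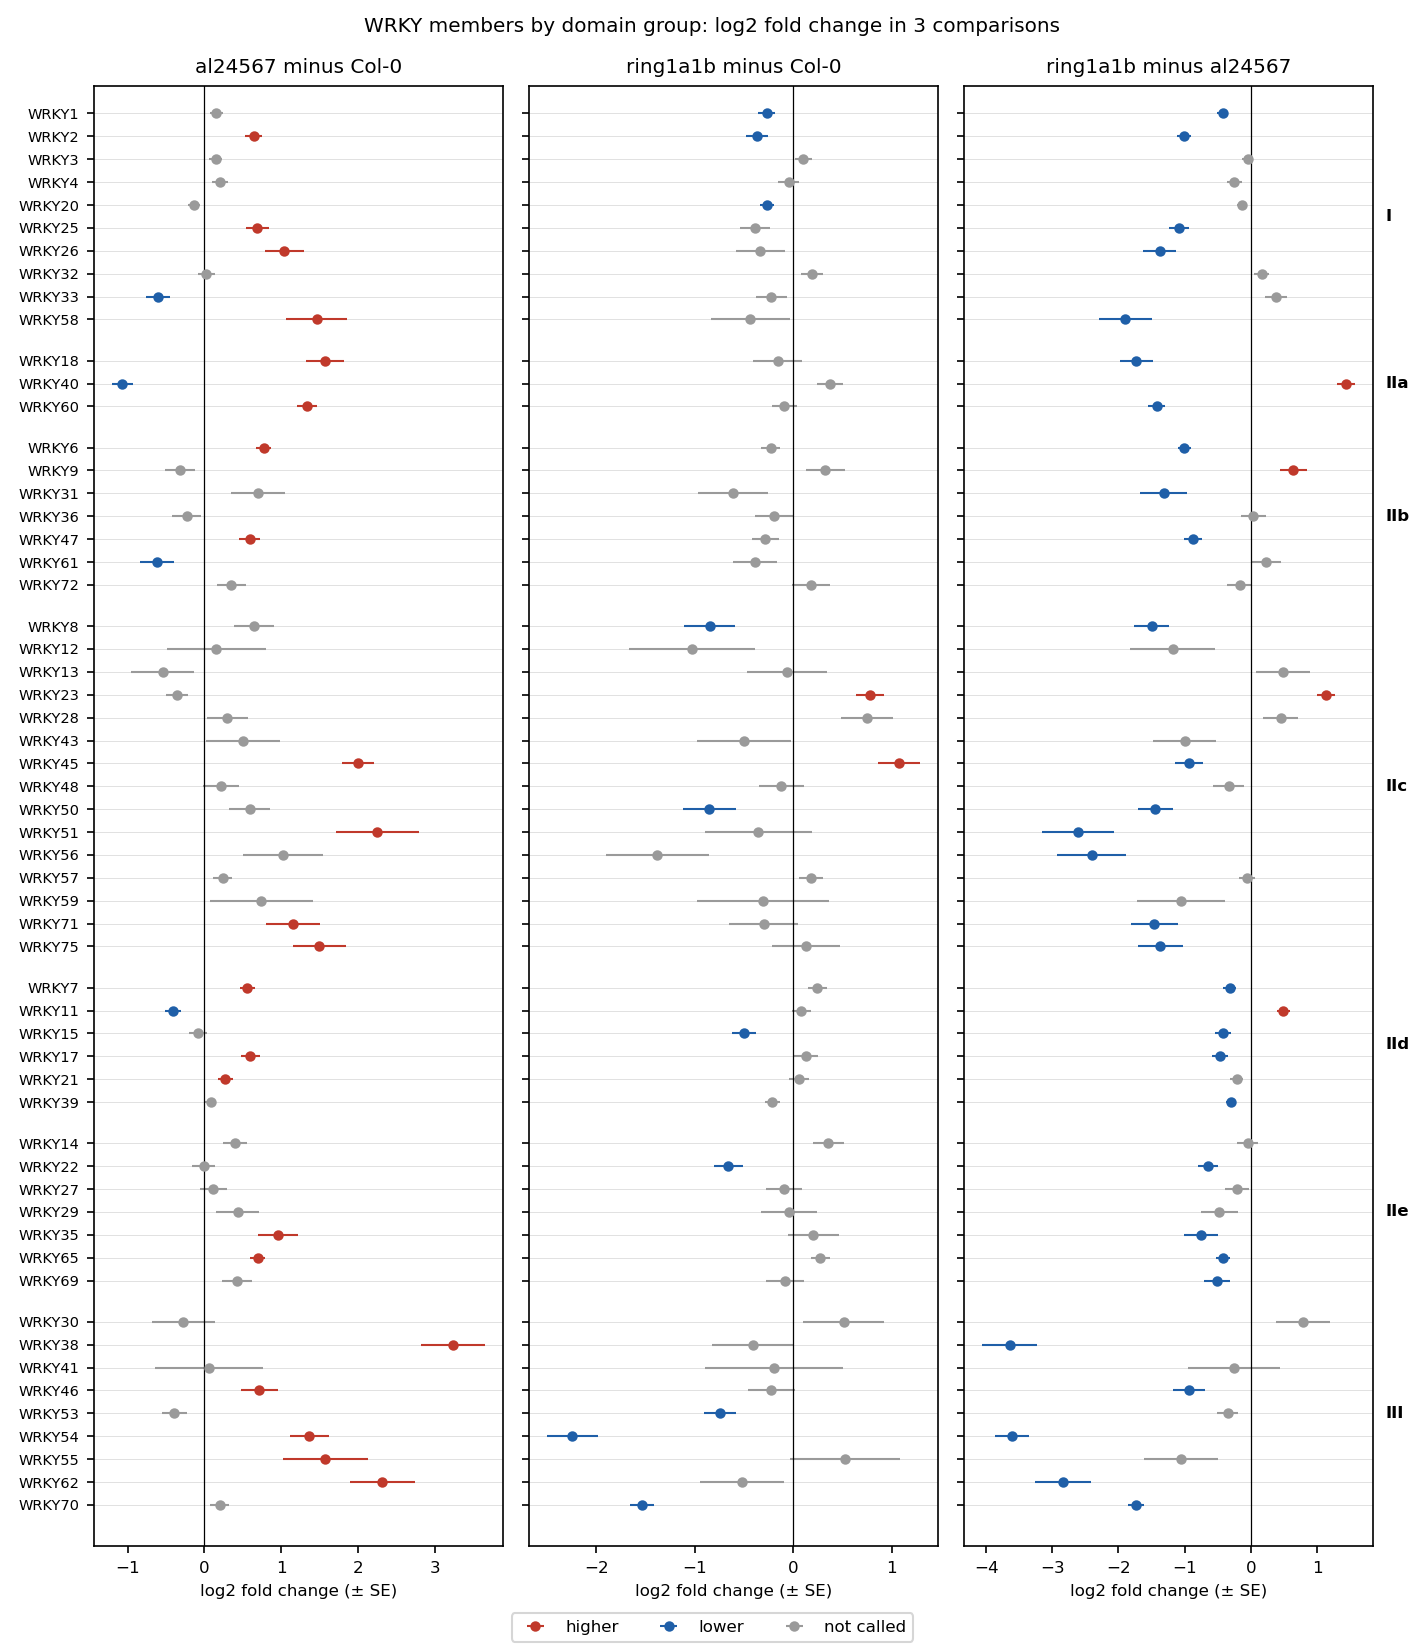
Log2 fold change (x axis, points with bars of 1 SE) of the 57 WRKY genes, sorted by domain group down the page, for each mutant against Col-0 (left and middle) and for ring1a1b against al24567 (right); red marks genes called higher, blue lower and grey not called. Most coloured points lie right of 0 in the left panel (22 of 26) and left of 0 in the middle (10 of 12) and right panels (30 of 34).

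By direction in both mutants, 1 member, WRKY45, rose in both. WRKY2 and WRKY54 rose in al24567 and fell in ring1a1b. Another 19 rose in al24567 and were not called in ring1a1b, namely WRKY6, WRKY7, WRKY17, WRKY18, WRKY21, WRKY25, WRKY26, WRKY35, WRKY38, WRKY46, WRKY47, WRKY51, WRKY55, WRKY58, WRKY60, WRKY62, WRKY65, WRKY71 and WRKY75. The 4 that fell in al24567 were not called in ring1a1b. WRKY23 rose in ring1a1b and was not called in al24567. A set of 8 fell in ring1a1b and were not called in al24567, namely WRKY1 (named ZAP1 in the reference annotation), WRKY8, WRKY15, WRKY20, WRKY22, WRKY50, WRKY53 and WRKY70. The remaining 22 were called in neither mutant.

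Because WRKY proteins bind W boxes, the promoter windows of members that moved are shown for reading beside their values. Each is the RefSeq TAIR10.1 sequence from 250 bases before to 50 bases after the annotated start, written 5′ to 3′ along the gene, with W box cores (TTGAC, or GTCAA where the core lies on the other strand) in capitals. WRKY54 and WRKY45 are shown because they were called in both mutants. WRKY2 was called in both mutants too but is not shown, and its window held no W box core. WRKY18 and WRKY40 are partner repressors that moved in opposite directions in al24567, and WRKY33 and WRKY11 fell there with WRKY40. These last 4 were chosen after their values were seen. The windows lie at chr2:17002479-17002778 (minus strand) for WRKY54, chr3:327363-327662 (minus) for WRKY45, chr4:15382527-15382826 (plus) for WRKY18, chr1:30383311-30383610 (plus) for WRKY40, chr2:16107985-16108284 (plus) for WRKY33 and chr4:15291885-15292184 (minus) for WRKY11.
WRKY54: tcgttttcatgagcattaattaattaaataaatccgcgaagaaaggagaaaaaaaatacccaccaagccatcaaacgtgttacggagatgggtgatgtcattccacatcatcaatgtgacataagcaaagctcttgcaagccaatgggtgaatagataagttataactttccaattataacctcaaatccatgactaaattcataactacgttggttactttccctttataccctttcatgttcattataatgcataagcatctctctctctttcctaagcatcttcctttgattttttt
WRKY45: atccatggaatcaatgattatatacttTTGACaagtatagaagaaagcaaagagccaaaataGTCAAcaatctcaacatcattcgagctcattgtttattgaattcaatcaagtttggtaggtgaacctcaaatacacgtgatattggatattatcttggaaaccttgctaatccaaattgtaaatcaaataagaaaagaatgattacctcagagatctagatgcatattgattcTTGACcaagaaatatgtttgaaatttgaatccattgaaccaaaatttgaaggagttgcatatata
WRKY18: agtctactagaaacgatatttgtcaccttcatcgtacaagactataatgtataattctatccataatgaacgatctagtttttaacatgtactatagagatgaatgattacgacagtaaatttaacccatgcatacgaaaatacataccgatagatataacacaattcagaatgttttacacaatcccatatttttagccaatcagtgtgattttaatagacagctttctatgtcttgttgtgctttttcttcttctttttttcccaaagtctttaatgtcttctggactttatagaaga
WRKY40: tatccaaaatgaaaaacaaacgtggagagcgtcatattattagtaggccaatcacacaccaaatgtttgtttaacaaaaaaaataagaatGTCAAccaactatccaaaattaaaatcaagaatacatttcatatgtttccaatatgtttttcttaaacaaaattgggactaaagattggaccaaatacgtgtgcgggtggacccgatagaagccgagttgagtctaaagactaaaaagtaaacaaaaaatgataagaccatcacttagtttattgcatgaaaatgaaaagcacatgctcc
WRKY33: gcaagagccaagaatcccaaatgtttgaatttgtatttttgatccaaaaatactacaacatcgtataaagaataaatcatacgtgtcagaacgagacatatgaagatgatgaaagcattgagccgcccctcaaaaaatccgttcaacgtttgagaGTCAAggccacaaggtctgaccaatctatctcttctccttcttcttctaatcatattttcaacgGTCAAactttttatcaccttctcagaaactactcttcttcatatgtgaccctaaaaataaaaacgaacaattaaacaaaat
WRKY11: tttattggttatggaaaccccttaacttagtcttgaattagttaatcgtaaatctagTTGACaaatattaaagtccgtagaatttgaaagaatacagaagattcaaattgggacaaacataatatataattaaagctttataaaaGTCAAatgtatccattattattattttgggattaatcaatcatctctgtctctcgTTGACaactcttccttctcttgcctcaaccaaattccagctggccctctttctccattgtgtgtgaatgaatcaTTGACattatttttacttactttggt
The windows of WRKY54 and WRKY18 held 0 cores, that of WRKY40 held 1, that of WRKY33 held 2, that of WRKY45 held 3 and that of WRKY11 held 4. The core was followed by C or T, a full W box, at 2 places in WRKY45, 2 in WRKY33 and 1 in WRKY11.

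Over the family, the core TTGAC was found on either strand in the windows of 35 of 57 members (61.4%), against 49.9% of 32546 windows of the same length over the genes of the table. A full W box, TTGACC or TTGACT, which contains the core, was found in 22 members (38.6%), against 31.8% of all windows. The core was present in 15 of the 22 members that rose in al24567, in the 4 that fell and in 16 of the 31 that were not called. In ring1a1b it was present in 1 of the 2 members that rose and in 5 of the 10 that fell. The full W box was present in 7 of the 22 members that rose in al24567 (31.8%, as over all windows). It was present in 3 of the 4 that fell and in 12 of the 31 that were not called. In ring1a1b the full W box was present in 1 of the 2 members that rose and in 3 of the 10 that fell. The RY motif CATGCA, an element bound by B3-domain factors that recruit Polycomb complexes, was found in 6 members (10.5%), against 10.1% of all windows, among them WRKY18 and WRKY40. The telobox AAACCCTA, also an element tied to Polycomb recruitment in plants, was found in 2 members (3.51%), WRKY20 and WRKY6, against 6.19% of all windows. These are matches of letters in the windows and no test was made of them.

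**Figure D2:**
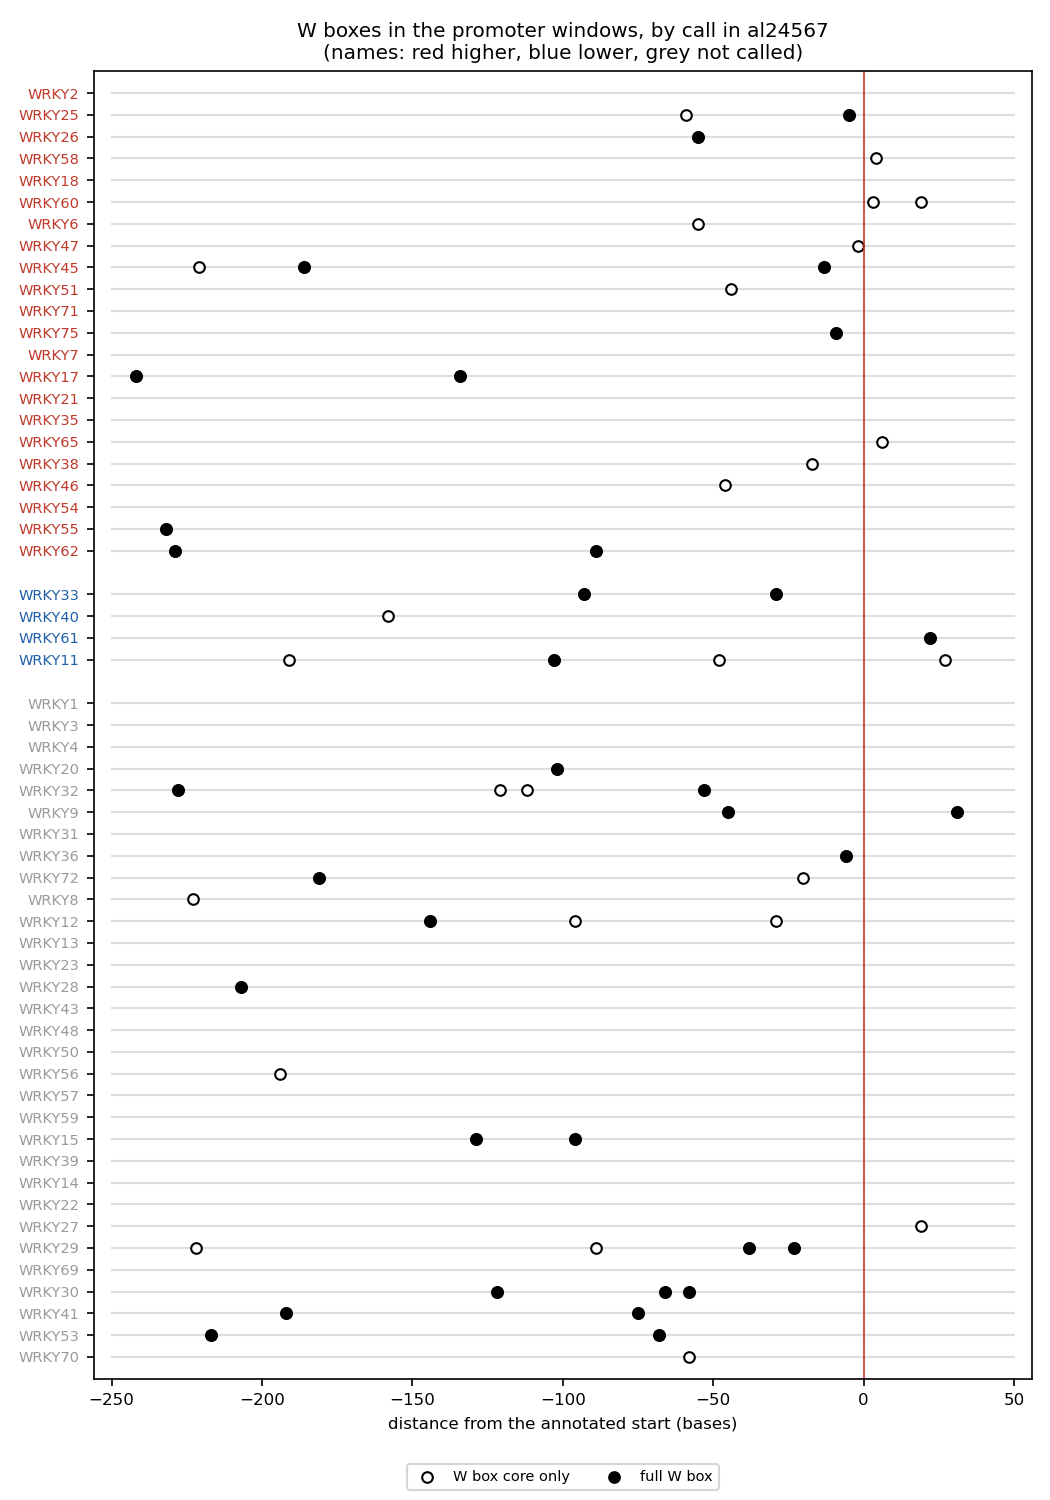
Position of W box cores (open circles) and full W boxes (filled circles) in the promoter windows of the 57 WRKY genes, as distance in bases from the annotated start (red line), with genes grouped down the page by their call in al24567. Of 22 genes called higher (red names) 15 held a core, of 4 called lower (blue names) 4 held one, and of 31 not called (grey names) 16 held one.

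Group III, whose members carry a zinc finger of a different type, holds several WRKY genes with known roles in salicylic acid responses. Of its 9 listed members, 5 rose (55.6%, against 17.9% of all genes tested) and 0 fell in al24567. In ring1a1b 0 rose and 3 fell (33.3%, against 7.67%). WRKY38 (AT5G22570) had values of 117.3, 156.8 and 133.2 in al24567, 14.6, 10.5 and 6.14 in ring1a1b, and 7.40, 29.2 and 10.8 in Col-0. The al24567 libraries stood clear of all 6 others, which overlapped each other. Its log2 fold change was 3.24 ± 0.41 (SE) in al24567, a 9.42-fold rise and the largest of the family, with an adjusted p of 5.92e-06. These levels rest on 385 reads in al24567, 32 in ring1a1b and 48 in Col-0. WRKY62 (AT5G01900), its close partner in the repression of basal defence, had values of 26.1, 49.9 and 71.2 in al24567, 6.81, 4.74 and 5.10 in ring1a1b, and 6.28, 7.41 and 12.2 in Col-0. Its al24567 libraries varied widely but all lay above the rest. In al24567 the log2 fold change was 2.31 ± 0.42 (adjusted p = 0.000271). In ring1a1b the log2 fold changes were -0.41 ± 0.41 for WRKY38 and -0.52 ± 0.42 for WRKY62, and neither was called.

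WRKY54 and WRKY70 act together as negative regulators of leaf senescence and in the feedback on salicylic acid levels. WRKY54 (AT2G40750), at chr2:17000419-17002528 (TAIR10.1, minus strand), had values of 195.4, 220.7 and 237.1 in al24567, 23.4, 18.1 and 11.3 in ring1a1b, and 63.6, 99.9 and 91.9 in Col-0. The 3 genotypes did not overlap, with al24567 highest, Col-0 between and ring1a1b lowest. Its log2 fold change was 1.37 ± 0.26 in al24567 (adjusted p = 0.000343) and -2.24 ± 0.26 in ring1a1b (adjusted p = 4.16e-06), a 4.74-fold fall. Between the mutants, ring1a1b minus al24567, the difference was -3.61 ± 0.26 (adjusted p = 2.99e-09), or 12.2-fold. WRKY70 (AT3G56400) had values of 2168, 2461 and 2336 in al24567, 565.3, 916.6 and 646.8 in ring1a1b, and 1814, 1999 and 2269 in Col-0. The ring1a1b libraries lay far below the others, and those of al24567 and Col-0 overlapped. Its log2 fold change was -1.54 ± 0.13 in ring1a1b (adjusted p = 6.55e-08), a 2.90-fold fall, and 0.20 ± 0.13 in al24567 (adjusted p = 0.233, 95% interval -0.06 to 0.46). WRKY54 and WRKY70, which are known as a functional pair, were both lower in ring1a1b, while in al24567 WRKY54 was called and WRKY70 was not. No test of the difference between the 2 genes was made.

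WRKY55 (AT2G40740) lies next to WRKY54 on chromosome 2, at chr2:16997078-16999499 on the plus strand and 919 bases away. Among the 57 listed members, this was the one pair found within 6 genes of each other. WRKY genes outside the list were not searched. WRKY55 had values of 12.0, 20.1 and 23.1 in al24567, 11.7, 10.5 and 4.11 in ring1a1b, and 11.3, 7.36 and 1.42 in Col-0. The lowest al24567 library lay just above the highest Col-0 library. In al24567 its log2 fold change was 1.58 ± 0.56 (adjusted p = 0.0339) and 0.53 ± 0.56 in ring1a1b (adjusted p = 0.595), where its neighbour WRKY54 fell. The al24567 call was lost without Col-0 replicate 3, where the log2 fold change was 0.89 (adjusted p = 0.208), without al24567 replicate 2 (0.0883) or 3 (0.11), with a pseudocount of 0.1 (0.0552), with edgeR (0.0549) and with DESeq2 (0.0628).

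WRKY53 (AT4G23810), an activator of leaf senescence, had values of 335.7, 390.6 and 465.2 in al24567, 221.8, 405.6 and 326.9 in ring1a1b, and 487.5, 498.4 and 570.9 in Col-0. All 6 mutant libraries lay below all 3 Col-0 libraries. The log2 fold change was -0.74 ± 0.16 in ring1a1b (adjusted p = 0.00325). In al24567 it was -0.39 ± 0.16 (adjusted p = 0.0674), which became a call under several alternatives, among them only the 2 genotypes in the fit (0.0118), edgeR (0.0445) and the fits without al24567 replicate 3 (0.0298) and without ring1a1b replicate 1 (0.0139) or 2 (0.0273). WRKY53 overlaps AT4G23800 on the opposite strand by 341 bases, and that gene fell in al24567 by 1.1 ± 0.16 on the log2 scale. Whether the authors' counting used strand is not given in the sources used here, so reads in the overlap cannot be assigned to one gene. WRKY46, which acts with WRKY53 and WRKY70 in basal resistance, rose in al24567 with a log2 fold change of 0.71 ± 0.24 (adjusted p = 0.0276). That call was lost without Col-0 replicate 1 (0.123) or 3 (0.0869) and without al24567 replicate 2 (0.0558) or 3 (0.0785). WRKY30 and WRKY41, the other listed group III members, were called in neither mutant. WRKY41 had 5, 4 and 4 reads in all in al24567, ring1a1b and Col-0.

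**Figure D3:**
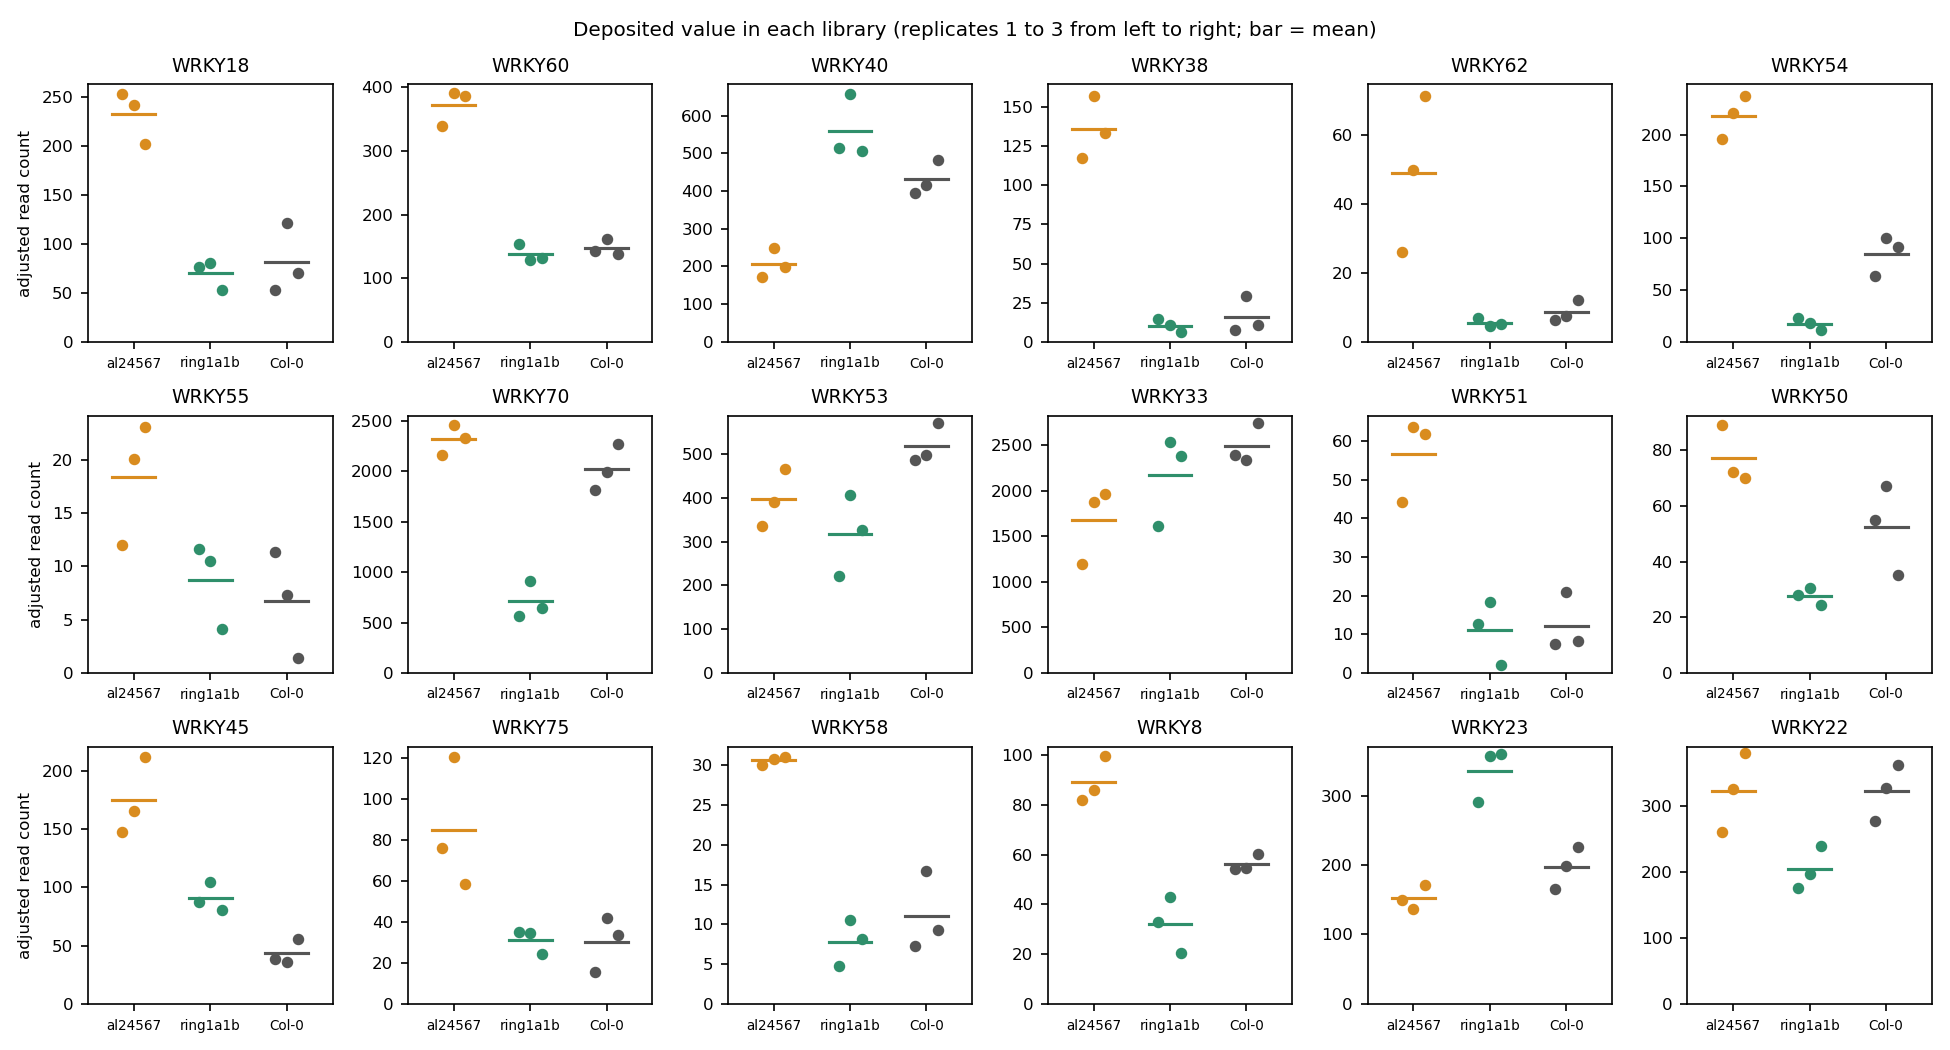
Adjusted read count (y axis, from 0, with its own scale in each panel) of 18 WRKY genes in the 3 libraries of al24567, ring1a1b and Col-0; points are libraries and bars are means. WRKY38 lies between 117.3 and 156.8 in al24567 and at or below 29.2 in all other libraries, WRKY40 is lowest in al24567, and WRKY54 and WRKY70 are lowest in ring1a1b.

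Group IIa holds WRKY18, WRKY40 and WRKY60, which form complexes with each other and together restrain defence against biotrophic pathogens. In al24567 the 3 partners split, with WRKY18 and WRKY60 higher and WRKY40 lower. Over all genes tested, 17.9% were higher and 18.4% lower there. None of the 3 was called in ring1a1b, where 17.7% of all genes tested were called. WRKY18 (AT4G31800) had values of 252.5, 241.9 and 201.4 in al24567, 76.7, 80.2 and 53.1 in ring1a1b, and 53.3, 121.5 and 70.6 in Col-0, so the al24567 libraries stood apart. Its log2 fold change was 1.57 ± 0.25 in al24567 (adjusted p = 5.5e-05), a 2.97-fold rise. WRKY60 (AT2G25000), given per library after its values were seen to complete the group, had values of 339.7, 391.5 and 387.1 in al24567, 154.4, 129.5 and 131.4 in ring1a1b, and 142.4, 162.1 and 137.5 in Col-0. Its al24567 libraries also stood above all others, with a log2 fold change of 1.33 ± 0.13 in al24567 (adjusted p = 2.43e-07), a 2.52-fold rise.

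WRKY40 (AT1G80840) had values of 172.4, 248.9 and 198.8 in al24567, 513.1, 658.0 and 507.3 in ring1a1b, and 395.1, 416.2 and 481.9 in Col-0. The 3 genotypes did not overlap, with al24567 lowest and ring1a1b highest. The log2 fold change was -1.07 ± 0.13 in al24567 (adjusted p = 4.66e-06), a 2.1-fold fall. In ring1a1b it was 0.37 ± 0.13 (adjusted p = 0.0641), which became a call under several alternatives, among them edgeR (0.0258), DESeq2 (0.0326), only the 2 genotypes in the fit (0.0159) and the fits without al24567 replicate 1 (0.0345) or 2 (0.0343). Between the mutants, ring1a1b minus al24567, WRKY40 differed by 1.44 ± 0.13 (adjusted p = 9.8e-08), while WRKY18 differed by -1.73 ± 0.25 (1.64e-05) and WRKY60 by -1.42 ± 0.13 (8.38e-08). In ring1a1b against Col-0, WRKY18 (-0.16 ± 0.25) and WRKY60 (-0.09 ± 0.13) were not called. WRKY40 overlaps AT1G80850 on the opposite strand by 51 bases, and that gene fell in al24567 by 0.53 ± 0.14 on the log2 scale. The promoter windows above hold 1 core for WRKY40 and 0 for WRKY18.

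Group IIc, the largest of the listed groups with 15 members, held WRKY genes of phosphate starvation and of the link between salicylic acid and jasmonate. In al24567, 4 rose (26.7%, against 17.9% of all genes tested) and 0 fell. In ring1a1b, 2 rose and 2 fell (13.3% each way, against 10% higher and 7.67% lower over all genes). WRKY45 (AT3G01970), which activates the phosphate transporter gene PHT1;1, had values of 147.3, 165.7 and 212.2 in al24567, 87.3, 105.0 and 80.5 in ring1a1b, and 38.5, 36.0 and 55.4 in Col-0. The genotypes did not overlap, and Col-0 was lowest. The log2 fold change was 2.0 ± 0.21 in al24567 (adjusted p = 7.19e-07), a 4.0-fold rise, and 1.07 ± 0.21 in ring1a1b (adjusted p = 0.0015), a 2.1-fold rise. The level in ring1a1b was below that in al24567, with a difference of -0.93 ± 0.21 (adjusted p = 0.00187). PHT1;1, given after its values were seen, lay between 1889.55 and 2300.99 in al24567. It lay between 1552.16 and 1593.82 in ring1a1b and between 1535.08 and 1613.87 in Col-0, so those 2 genotypes overlapped. WRKY75 (AT5G13080), which acts in phosphate acquisition and in senescence, had values of 76.2, 120.3 and 58.5 in al24567, 35.0, 34.4 and 24.5 in ring1a1b, and 15.8, 41.9 and 33.6 in Col-0. Its log2 fold change was 1.49 ± 0.34 in al24567 (adjusted p = 0.00206) and 0.13 ± 0.34 in ring1a1b (adjusted p = 0.856), and the ring1a1b and Col-0 libraries overlapped.

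WRKY50 and WRKY51 are a pair that mediates the repression of jasmonate signalling by salicylic acid. WRKY51 (AT5G64810) had values of 44.1, 63.5 and 62.0 in al24567, 12.6, 18.3 and 2.09 in ring1a1b, and 7.35, 20.8 and 8.31 in Col-0. The al24567 libraries lay above the rest, with a log2 fold change of 2.25 ± 0.54 (adjusted p = 0.003), a 4.76-fold rise, against -0.35 ± 0.54 in ring1a1b (adjusted p = 0.728). WRKY50 (AT5G26170) had values of 89.2, 72.3 and 70.2 in al24567, 28.1, 30.5 and 24.5 in ring1a1b, and 55.0, 67.1 and 35.1 in Col-0. It fell in ring1a1b by 0.85 ± 0.27 on the log2 scale (adjusted p = 0.0318), while its log2 fold change of 0.59 ± 0.27 in al24567 was not called (adjusted p = 0.0928), although the genotypes did not overlap. The ring1a1b call of WRKY50 was lost without Col-0 replicate 1 (0.108) or 2 (0.162) and without ring1a1b replicate 1 (0.0591) or 3 (0.0988).

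WRKY23 (AT2G47260), an auxin-responsive gene of root and embryo patterning, had values of 149.3, 137.1 and 170.5 in al24567, 290.9, 357.5 and 359.4 in ring1a1b, and 165.5, 198.0 and 226.0 in Col-0. The ring1a1b libraries lay above all others, with a log2 fold change of 0.78 ± 0.14 (adjusted p = 0.000697), a 1.71-fold rise. In al24567 the log2 fold change was -0.36 ± 0.14 (adjusted p = 0.0554). Of the 10 root genes, 1 was called higher in ring1a1b and 0 were called lower. WRKY8 (AT5G46350), a gene of defence and salt responses, had values of 82.2, 86.0 and 99.6 in al24567, 33.0, 43.1 and 20.4 in ring1a1b, and 54.1, 54.8 and 60.1 in Col-0. The order was al24567, Col-0, ring1a1b without overlap. It fell in ring1a1b by 0.85 ± 0.26 on the log2 scale (adjusted p = 0.0292), and its log2 fold change of 0.65 ± 0.26 in al24567 was not called (adjusted p = 0.0586). The ring1a1b call of WRKY8 was lost without Col-0 replicate 1 (0.0684), 2 (0.0665) or 3 (0.0941) and without ring1a1b replicate 3 (0.154). WRKY71, a gene of shoot branching and flowering, rose in al24567 by 1.16 ± 0.35 on the log2 scale (adjusted p = 0.0151), a call that did not hold without al24567 replicate 1 (0.0612) or Col-0 replicate 2 (0.081).

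Group I, whose members carry a pair of WRKY domains, had 4 of 10 members that rose and 1 that fell in al24567 (40% and 10%, against 17.9% and 18.4% of all genes tested), and 3 that fell in ring1a1b (30%, against 7.67%). WRKY33 (AT2G38470), the main activator of camalexin synthesis and of resistance to necrotrophic fungi, had values of 1191, 1875 and 1964 in al24567, 1607, 2535 and 2379 in ring1a1b, and 2396, 2339 and 2747 in Col-0. The al24567 libraries lay below those of Col-0, and replicate 1 was the lowest library in both mutants. In al24567 the gene had a log2 fold change of -0.60 ± 0.16 (adjusted p = 0.00594), a 1.52-fold fall that DESeq2 did not call (0.0557). In ring1a1b it was -0.22 ± 0.16 (adjusted p = 0.397). WRKY33 overlaps AT2G38480 on the opposite strand by 26 bases, and that gene fell in al24567 by 0.62 ± 0.17 on the log2 scale. It also overlaps the non-coding AT2G08965 by 272 bases, which was not called in al24567 (0.06 ± 0.70, adjusted p = 0.96) or ring1a1b. WRKY25 and WRKY26, which act with WRKY33 in heat tolerance, rose in al24567, with log2 fold changes of 0.69 ± 0.15 (adjusted p = 0.0014) and 1.04 ± 0.25 (adjusted p = 0.00298). These 3 related genes had calls in opposite directions in the same seedlings.

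WRKY58 (AT3G01080), a repressor in systemic acquired resistance, had values of 30.1, 30.8 and 31.1 in al24567, 4.81, 10.5 and 8.15 in ring1a1b, and 7.34, 16.7 and 9.29 in Col-0. The al24567 libraries were close to each other and above the rest. Its log2 fold change was 1.46 ± 0.40 in al24567 (adjusted p = 0.00782) and -0.44 ± 0.40 in ring1a1b (adjusted p = 0.53). WRKY2, a regulator of pollen development and of germination under abscisic acid, rose by 0.64 ± 0.11 on the log2 scale in al24567 (adjusted p = 0.000146) and fell by 0.37 ± 0.11 in ring1a1b (adjusted p = 0.0258). The ring1a1b call of WRKY2 was lost without Col-0 replicate 1 (0.108) or 3 (0.0931), without ring1a1b replicate 1 (0.0934) or 2 (0.0765) and with equal column totals (0.0866). WRKY1 and WRKY20 each fell by 0.27 on the log2 scale in ring1a1b, with adjusted p of 0.034 for WRKY1 and 0.0181 for WRKY20. The WRKY1 call was lost without Col-0 replicate 1 (0.138), 2 (0.086) or 3 (0.0552), without ring1a1b replicate 1 (0.0563) or 3 (0.165), with equal column totals (0.14) and with DESeq2 (0.0574). The WRKY20 call was lost without Col-0 replicate 1 (0.0856) or 2 (0.0526), without ring1a1b replicate 2 (0.0798) and with equal column totals (0.0758).

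In groups IIb, IId and IIe the changes were smaller, and no member of these 3 groups passed 2-fold against Col-0 in either mutant. In IIb, WRKY6 rose in al24567 by 0.77 ± 0.10 on the log2 scale (adjusted p = 5.96e-06) and WRKY47 by 0.59 ± 0.14 (adjusted p = 0.00223). WRKY6 is a senescence-associated factor that also represses the phosphate exporter gene PHO1. WRKY61 fell by 0.62 ± 0.23 (adjusted p = 0.0381), a call lost without Col-0 replicate 2 (0.15) or 3 (0.122), without al24567 replicate 1 (0.062), 2 (0.0516) or 3 (0.0955) and with no filter on low values (0.0503). None of the 7 IIb members was called in ring1a1b, where 17.7% of all genes tested were called.

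Group IId, whose proteins bind calmodulin, gave another split of close relatives. WRKY11 and WRKY17 are partly redundant negative regulators of basal resistance, and in al24567 WRKY11 fell by 0.41 ± 0.10 on the log2 scale (adjusted p = 0.00288) while WRKY17 rose by 0.59 ± 0.12 (adjusted p = 0.000822). WRKY7 rose by 0.56 ± 0.10 (adjusted p = 0.000178). WRKY21 rose by 0.27 ± 0.10 (adjusted p = 0.0362), a call lost without Col-0 replicate 1 (0.082), 2 (0.077) or 3 (0.0913), without al24567 replicate 1 (0.0723) or 2 (0.124) and with equal column totals (0.096). WRKY15, a regulator of growth under oxidative and salt stress, fell in ring1a1b by 0.50 ± 0.12 (adjusted p = 0.00667). In IIe, WRKY35 rose by 0.96 ± 0.26 (adjusted p = 0.00659) and WRKY65 by 0.69 ± 0.10 (adjusted p = 2.22e-05) in al24567. WRKY22 (AT4G01250), which acts in the MAP kinase pathway of flagellin sensing, had values of 261.6, 325.8 and 380.9 in al24567, 176.4, 197.2 and 240.2 in ring1a1b, and 277.7, 328.7 and 362.9 in Col-0. Its ring1a1b libraries lay below all others, with a log2 fold change of -0.66 ± 0.15 (adjusted p = 0.00374), against -0.01 ± 0.15 in al24567 (adjusted p = 0.973). Its relative WRKY29 was called in neither mutant.

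**Figure D4:**
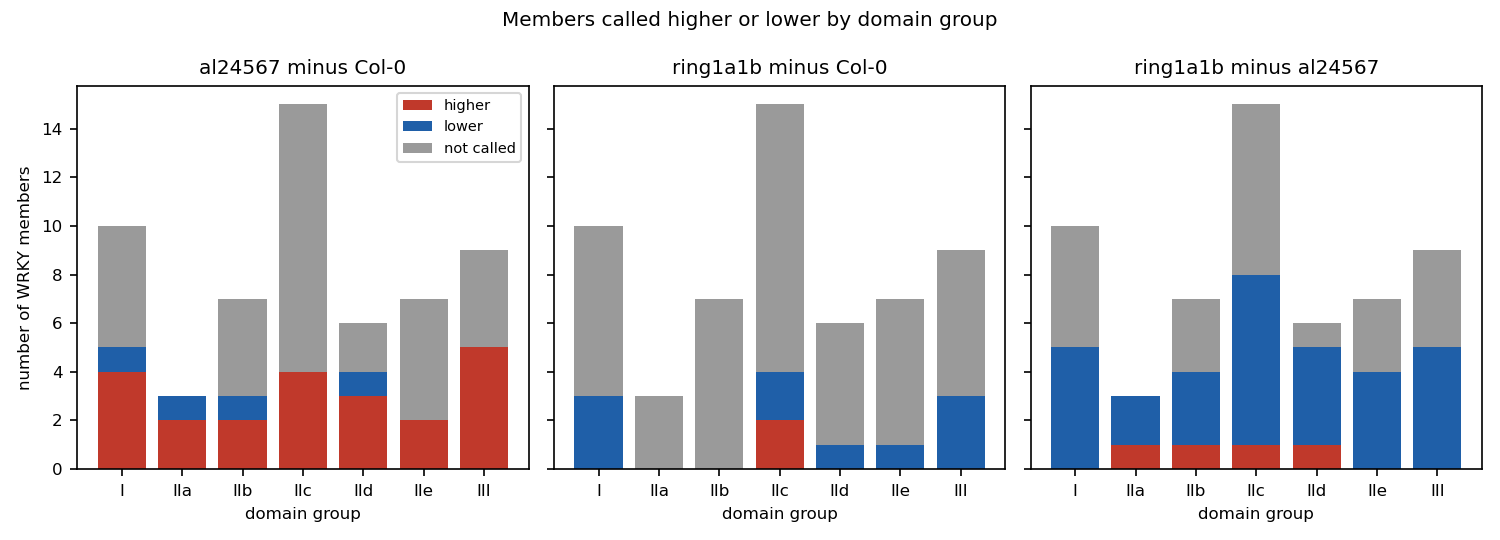
Number of WRKY genes (y axis) called higher (red), lower (blue) or not called (grey) in each domain group (x axis), for al24567 against Col-0, for ring1a1b against Col-0 and for ring1a1b against al24567. Group IIa (3 genes) has 2 higher and 1 lower in al24567 and 0 called in ring1a1b. Group III (9 genes) has 5 higher in al24567 and 3 lower in ring1a1b. Over all genes tested, 17.9% were higher and 18.4% lower in al24567, and 10% higher and 7.67% lower in ring1a1b.

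Between the mutants the largest differences, ring1a1b minus al24567, were in WRKY38 (-3.64 ± 0.41 on the log2 scale, adjusted p = 1.19e-06), WRKY54, WRKY62 (-2.84 ± 0.42, adjusted p = 2.9e-05) and WRKY51 (-2.61 ± 0.54, adjusted p = 0.000829). Leaving out ring1a1b replicate 3 moved the WRKY51 value to -1.81 (adjusted p = 0.00316). WRKY56 was called in neither mutant against Col-0 and differed between the mutants by -2.40 ± 0.52 (adjusted p = 0.00122), with -3.05 without ring1a1b replicate 3. It rests on 19 reads in ring1a1b and 86 in al24567, and was named after its values were seen. Of the 4 members higher in ring1a1b, WRKY40 is given above, WRKY23 differed by 1.14 ± 0.14 (adjusted p = 3.82e-06), WRKY9 by 0.64 ± 0.20 (adjusted p = 0.015) and WRKY11 by 0.49 ± 0.10 (adjusted p = 0.000564). The WRKY9 call was lost without ring1a1b replicate 2 (0.0819). WRKY33 was not called between the mutants (0.38 ± 0.16, adjusted p = 0.0674), but was under several alternatives, among them equal column totals (0.0276), edgeR (0.0359) and the fits without al24567 replicate 2 (0.0411) or 3 (0.0235) and without ring1a1b replicate 1 (0.00325).

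The 22 members called in neither mutant were WRKY3, WRKY4 and WRKY32 of group I, WRKY9, WRKY31, WRKY36 and WRKY72 of group IIb, WRKY12, WRKY13, WRKY28, WRKY43, WRKY48, WRKY56, WRKY57 and WRKY59 of group IIc, WRKY39 of group IId, WRKY14, WRKY27, WRKY29 and WRKY69 of group IIe, and WRKY30 and WRKY41 of group III. The log2 fold changes of the 31 members not called in al24567 lay between -0.54 and 1.02, and the libraries of 19 of them overlapped those of Col-0. Those of the 45 members not called in ring1a1b lay between -1.38 and 0.75, and the libraries of 39 overlapped. Some of these had few reads. WRKY59 had 5 reads in al24567, 1 in ring1a1b and 2 in Col-0 over 3 libraries each, and WRKY12 had 14, 5 and 12 in the same order.

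Per kilobase of exon, the mean adjusted count of WRKY70 was 1579 in al24567, 482.7 in ring1a1b and 1379 in Col-0. That of WRKY33 was 826.8 in al24567, 1072 in ring1a1b and 1230 in Col-0. WRKY70 was thus the higher of the 2 in al24567 and Col-0 and the lower in ring1a1b. In Col-0 they were the most abundant members per kilobase, followed by WRKY15 with 924.4 and WRKY11 with 655.8, and the lowest was WRKY59 with 0.657. The order of these levels was not tested. The members that rose most in al24567 were low ones, since WRKY38, WRKY62 and WRKY51 had means of 15.8, 8.64 and 12.2 adjusted counts in Col-0. A total of 11 members overlap an annotated gene on the opposite strand. Besides the overlaps given above, WRKY41 overlaps AT4G11080 by 517 bases, which fell in al24567 by 1.34 ± 0.24 on the log2 scale, and WRKY69 overlaps AT3G58720 by 373 bases, which fell in ring1a1b by 0.67 ± 0.20. WRKY61 overlaps the non-coding AT1G05447 by 216 bases and WRKY29 overlaps AT4G23560 by 251 bases. Both of these genes did not pass the filter. WRKY69 also overlaps the non-coding AT3G09145 by 345 bases, and WRKY1 overlaps AT2G04890 by 166 bases. WRKY4 overlaps AT1G13970 by 70 bases, WRKY2 overlaps AT5G56280 by 43 and WRKY9 overlaps AT1G68160 by 34. AT3G09145, AT2G04890, AT1G13970, AT5G56280 and AT1G68160 were not called in either mutant.

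Partner, upstream and target genes of the WRKY factors were counted from lists of named genes. VQ proteins bind WRKY domains and modulate their activity. Of 10 VQ genes, 8 passed the filter, and 3 rose and 0 fell in al24567, while 0 were called in ring1a1b. The share called in al24567, 37.5%, was near the 36.3% of all genes tested, and in ring1a1b 17.7% of all genes were called. The median log2 fold change of the tested VQ genes was 0.52 in al24567 and -0.05 in ring1a1b. JAV1, a repressor of jasmonate defence, rose by 1.45 ± 0.20 on the log2 scale in al24567 (adjusted p = 1.33e-05), and SIB1, which activates WRKY33, rose by 1.02 ± 0.17 (adjusted p = 9.4e-05). MKS1, a substrate of MPK4 that binds WRKY33, rose by 0.46 ± 0.17 (adjusted p = 0.0458), a call lost without Col-0 replicate 1 (0.15), 2 (0.0674) or 3 (0.0778) and without al24567 replicate 2 (0.17) or 3 (0.077), with no filter (0.0548) and with equal column totals (0.083). In ring1a1b the VQ gene with the smallest p was SIB1, at -0.38 ± 0.17 (adjusted p = 0.141).

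Of 8 genes of the MAP kinase cascades upstream of WRKY33 and WRKY22, 3 rose and 1 fell in al24567, and 0 rose and 3 fell in ring1a1b. These are 50% called in al24567, against 36.3% of all genes tested, and 37.5% in ring1a1b, against 17.7%. MKK4 rose by 0.85 ± 0.14 on the log2 scale in al24567, MKK2 by 0.46 ± 0.08 and MPK4 by 0.24 ± 0.08, and the MPK4 call did not hold without al24567 replicate 1 (adjusted p = 0.0629) or Col-0 replicate 2 (0.051). MPK3, a kinase that phosphorylates WRKY33, fell in both mutants, by 0.37 ± 0.10 in al24567 and 0.43 ± 0.10 in ring1a1b. The al24567 call of MPK3 was lost without Col-0 replicate 3 (0.0509). MEKK1 fell in ring1a1b by 0.46 ± 0.09. MKK1 fell there by 0.39 ± 0.13 (adjusted p = 0.0496), a call lost without each Col-0 library in turn (0.0874 to 0.145), without ring1a1b replicate 1 (0.171) or 2 (0.119) and with a pseudocount of 0.1 (0.0603), with no filter (0.0606), with equal column totals (0.136), with edgeR (0.0528) and with DESeq2 (0.0695). The median log2 fold change of the 8 genes was 0.20 in al24567 and -0.04 in ring1a1b.

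Of 13 genes described as targets of WRKY factors, 12 passed the filter, and 8 rose and 1 fell in al24567, while 0 rose and 5 fell in ring1a1b. In al24567 66.7% of the tested targets were higher, against 17.9% of all genes tested, and 8.33% lower, against 18.4%. In ring1a1b 41.7% were lower, against 7.67% of all genes, and 0 higher, against 10%. FRK1, a receptor-like kinase gene induced by flagellin, had values of 614.3, 677.1 and 712.1 in al24567, 64.9, 83.0 and 77.4 in ring1a1b, and 73.9, 78.0 and 91.2 in Col-0, with a log2 fold change of 3.03 ± 0.15 in al24567. The camalexin genes CYP71A13 and PAD3, known targets of WRKY33, rose in al24567 by 3.14 ± 0.39 and 1.35 ± 0.19, in the same seedlings in which WRKY33 fell. EDS1, a hub of immune receptor signalling, rose by 0.75 ± 0.08. The 1 target that fell in al24567 was PHO1, by 0.19 ± 0.07 (adjusted p = 0.0449), named after its value was seen. The PHO1 call was lost without Col-0 replicate 2 (0.141) or 3 (0.163), without al24567 replicate 1 (0.0723) or 3 (0.148) and without ring1a1b replicate 2 (0.0539) or 3 (0.0533). It was also lost with only the 2 genotypes in the fit (0.0621), with edgeR (0.0558) and with DESeq2 (0.0773).

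In ring1a1b, PR1, the classical marker of salicylic acid, fell by 4.95 ± 0.65 on the log2 scale, with values of 20.0, 193.6 and 7.38 in ring1a1b, against 732.2, 1050 and 1302 in Col-0. The PR1 value was -6.24 without ring1a1b replicate 2, which lay highest of the 3, -3.97 without ring1a1b replicate 3 and -3.78 with edgeR. SARD1 and CBP60g, activators of salicylic acid synthesis, fell by 1.63 ± 0.21 and 0.58 ± 0.15, and ICS1, the synthesis enzyme that they control, by 0.32 ± 0.09. The CBP60g call was lost without Col-0 replicate 2 (0.058) or ring1a1b replicate 3 (0.0501). That of ICS1 was lost without Col-0 replicate 2 (0.104) or 3 (0.0631) and without ring1a1b replicate 2 (0.0731), and with equal column totals (0.0656). PAD3 was the fifth target that fell, by 0.65 ± 0.19, with libraries that overlapped, and its call was lost without Col-0 replicate 2 (0.126) or 3 (0.0593) and without ring1a1b replicate 2 (0.0583) or 3 (0.0989). The median log2 fold change of the tested targets was 0.70 in al24567 and -0.45 in ring1a1b. In al24567, PR1 lay between 4907 and 5337, against 732.2 to 1302 in Col-0. SARD1 lay there between 264.6 and 300.2, against 105.15 to 140.95 in Col-0, and ICS1 between 803.6 and 859.9, against 472.0 to 582.3. CBP60g lay between 455.0 and 625.1 in al24567, against 391.0 to 491.7 in Col-0, so its libraries overlapped.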

How the data were processed

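RNA of 9 seedling libraries (3 genotypes, 3 libraries each) was sequenced as paired reads. Per the submitters' processing notes, bcl2fastq, HISAT2 and edgeR were used with the TAIR10 build, and their versions are not given there. The counting tool, annotation, strand setting and RNA selection are not given in the sources used here. The deposited signal values are not whole numbers. From the values they are read counts that edgeR adjusted to a common library size, neither CPM nor divided by length. Inverting the adjustment with a dispersion of 0.00826 gave whole reads for 100% of 226611 values of 25179 genes (within 0.01 reads, or 1e-05 of the value), and these reads give the depth. The table held 32548 genes, all found in TAIR10.1.

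Since the deposited values are adjusted and no longer raw counts, limma-trend (R 4.3.3, limma 3.58.1) was run on log2(value + 1) for the 23207 genes that reached 1 in 3 libraries. A single fit of genotype means used 9 libraries and left 6 residual degrees of freedom. Log2 fold changes are on this scale, with moderated standard errors, and understate changes of low genes. Adjusted p is Benjamini-Hochberg over all genes tested, and genes were called below 0.05. The script was tested on simulated data.

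The WRKY family, its members, the gene lists and the tests were chosen with earlier results of these data known, although membership itself rests on locus names. Named genes were all members called in either mutant, per-library values for WRKY18, WRKY33, WRKY38, WRKY40, WRKY53, WRKY54 and WRKY70 and the 8 called members with the largest absolute log2 fold change in each mutant, and up to 4 called genes per list by smallest p. Promoters and motifs were read from TAIR10.1 with Python 3.11.15. The alternatives tried were each library left out, a pseudocount of 0.1, all genes without a filter, genes with 5 CPM in 3 libraries, equal column totals, a fit of only 2 genotypes, a block for replicate number, and edgeR 4.0.16 and DESeq2 1.42.0 on the recovered reads. Protein sequences were not used here.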

Additional observations from a re-analysis of the deposited data

How the results depend on the processing

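Of 72 calls of WRKY genes over the 3 comparisons, 55 held under each of the 17 alternatives that tested the gene. A minimum of 5 CPM tested fewer members and called 16 higher and 4 lower in al24567, 2 and 9 in ring1a1b, and 3 and 20 in ring1a1b minus al24567. Equal column totals lost 9, DESeq2 3, no filter 2, and a pseudocount of 0.1, edgeR and a fit of only the 2 genotypes 1 each, while leaving out 1 library lost 3 to 8. The count of members higher in ring1a1b, 2 as reported, was 4 with equal column totals, 4 with DESeq2, 5 with edgeR and 2 to 4 with a library left out. That of members lower in ring1a1b, 10 as reported, was 5 to 11 with a library left out. Leaving out a library gave 19 to 24 higher and 3 to 5 lower members in al24567, and 3 to 6 higher and 27 to 32 lower in ring1a1b minus al24567. With equal column totals, 69.8% of all called genes were higher in ring1a1b than in Col-0, against 56.7% as reported, and 65% were higher in ring1a1b than in al24567, against 51.5%. Members not called in a comparison were followed through the alternatives only for WRKY18, WRKY33, WRKY38, WRKY40, WRKY53, WRKY54 and WRKY70. Among those of them not called in ring1a1b, values reversed for 2 genes. WRKY18 was 0.16 without Col-0 replicate 2 and 0.02 without ring1a1b replicate 3, and WRKY38 was 0.12 without Col-0 replicate 2. The leave-one-out ranges were -0.42 to 0.16 for WRKY18 and -0.80 to 0.12 for WRKY38. Sign changes of the other members not called were not looked at. The cause was not tested.

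Over all genes, same-numbered libraries did not deviate together (correlations -0.0172 to 0.0377), so replicate numbers were not taken to pair them, although the members tended to be low in replicate 1 of each genotype. With the replicate block, 4 members were higher and 11 lower in ring1a1b, 23 higher and 6 lower in al24567, and 5 higher and 32 lower in ring1a1b minus al24567. Among genes given by library, the replicate block made calls of WRKY53 in al24567 (adjusted p = 0.0219), WRKY40 in ring1a1b (0.0324), and WRKY33 (0.00647) and WRKY53 (0.0375) in ring1a1b minus al24567. Depth limits the low members: WRKY59 and WRKY41 had at most 5 reads in a genotype. Groups of 3 libraries allow no check for single outlying libraries.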

Other observations

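WRKY genes tended to be lowest in replicate 1 of each genotype. Replicate 1 was the lowest of the 3 libraries for 35 of 57 members in al24567 (61.4%, against 34.5% of all genes tested), 26 in ring1a1b (45.6%, against 32.6%) and 33 in Col-0 (57.9%, against 33.8%). The median deviation of the members from their genotype mean in replicate 1 was -0.11 on the log2 scale in al24567, in ring1a1b and in Col-0. A set of 13 members (22.8%, against 5.14% of all genes tested) were lowest in replicate 1 of all 3 genotypes, among them WRKY70, WRKY53, WRKY22, WRKY11, WRKY15 and WRKY26. The pattern was noticed in the data, and the labels do not say whether replicate 1 of each genotype was grown, extracted or sequenced together. It was not tested.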
